A study of Mus musculus with 8 samples.

Results

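The levels of 5 long noncoding RNAs (lncRNAs), *Malat1*, *Neat1*, *Tug1*, *Miat* and *Kcnq1ot1*, were examined in mouse embryonic stem cells (ESCs) from which ZZZ3 or YEATS2 had been removed. The 5 genes were taken by name from 55401 genes counted in 8 libraries, and all 5 were among the 17532 genes with enough reads to be tested. ZZZ3 and YEATS2 belong to ATAC, a coactivator complex that acetylates histones. The study asked whether altered RNA synthesis is offset by altered RNA stability, and its nascent RNA data were not analysed here. There were 2 libraries labelled Control, 3 labelled Zzz3_auxin and 3 labelled Yeats2_auxin. The auxin groups carried ZZZ3 or YEATS2 with an auxin-inducible degron, a tag that leads to breakdown of the protein once auxin (indole-3-acetic acid, 500 µM for 24 h) is added. All cells grew on gelatin in serum with leukaemia inhibitory factor and 2i, a pair of kinase inhibitors that hold ESCs in the naive state. G418 was used to keep the TIR1 receptor that auxin acts through, and whether Control cells carried TIR1 is not stated. The labels give neither the line nor the treatment of Control, the methods of the study name a wild type as the reference of its rates, and its supplement speaks of degron cells given solvent or auxin. Removal of a protein, exposure to auxin and any difference of line therefore cannot be told apart here.

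lncRNAs are long transcripts that do not encode a protein, and the 5 genes are best known for RNAs that stay in the nucleus. *Malat1* RNA gathers in nuclear speckles, bodies rich in splicing factors, and the long form of *Neat1* is the scaffold on which paraspeckles are built. *Tug1* is a widely expressed lncRNA with nuclear and cytoplasmic pools, *Miat* (also called Gomafu) forms its own nuclear domain and binds splicing factor 1, and *Kcnq1ot1* is made from the paternal chromosome only and silences imprinted genes around it. The location of the RNAs within cells was not measured here.

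The 3′ ends of *Malat1* and *Neat1* set both RNAs apart from ordinary transcripts, and their sequences are shown first for that reason. Neither RNA ends in a poly(A) tail added by the usual machinery: RNase P cuts at a tRNA-like structure, and U-rich elements fold with an A-rich element into a triple helix that shields the end. Capitals mark a U-rich element (the first run) and the A-rich element (the second), and do not mark the whole structure. The sequences are written as DNA and read from the GENCODE transcripts on GRCm38, minus strand, at chr19:5795922-5796042 and chr19:5824708-5824775.
Malat1: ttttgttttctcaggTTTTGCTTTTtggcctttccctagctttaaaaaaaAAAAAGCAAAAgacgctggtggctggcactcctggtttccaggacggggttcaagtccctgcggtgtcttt
Neat1 long form: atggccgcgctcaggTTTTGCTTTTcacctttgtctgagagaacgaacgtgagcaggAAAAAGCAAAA
Both elements were searched on the transcript strand, in this order and within 120 bases of each other. They were found in 2 of 55450 genes by their longest transcripts, and these were *Malat1* and *Neat1*, with 25 and 32 bases between the elements. The annotated *Malat1* transcript runs on for 292 bases past the A-rich element, while the annotated *Neat1* long form ends with it.

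The short form of *Neat1* ends within the same gene, at chr19:5842307-5842366 on the minus strand, with a usual polyadenylation signal, AATAAA, in capitals. It is shown because the counts are per gene and do not separate the 2 forms.
Neat1 short form: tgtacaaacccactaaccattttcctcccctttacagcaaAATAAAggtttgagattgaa
AATAAA lay in the last 50 bases of 33.1% of 10723 lncRNAs by their longest transcripts.

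*Miat* is known for repeats of ACTAAC, which resemble the branch point bound by splicing factor 1. The annotated transcript of 9163 bases held 11 copies, or 1.2 per kb on the transcript strand, as many or more per kb being found in 0.228% of 2634 lncRNA transcripts of at least 2000 bases, whose median was 0. The stretch at chr5:112217311-112217457, minus strand, is shown as the place where copies (in capitals) lie close together.
Miat: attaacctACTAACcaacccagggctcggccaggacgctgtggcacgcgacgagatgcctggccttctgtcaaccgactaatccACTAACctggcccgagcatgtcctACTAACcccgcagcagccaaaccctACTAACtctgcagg

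The promoter of *Kcnq1ot1* lies within an imprinting control region in an intron of *Kcnq1*, and CCAAT boxes are known for their part in its activity. The 300 bases around the start, from RefSeq on GRCm38.p6, chr7:143296498-143296797, minus strand, held 3 CCAAT boxes on either strand, in capitals. Of 32851 promoters of the same length, 3.37% held 3 or more and 37.4% held at least 1. The promoters of *Malat1*, *Tug1* and *Miat* held 0.
Kcnq1ot1 promoter: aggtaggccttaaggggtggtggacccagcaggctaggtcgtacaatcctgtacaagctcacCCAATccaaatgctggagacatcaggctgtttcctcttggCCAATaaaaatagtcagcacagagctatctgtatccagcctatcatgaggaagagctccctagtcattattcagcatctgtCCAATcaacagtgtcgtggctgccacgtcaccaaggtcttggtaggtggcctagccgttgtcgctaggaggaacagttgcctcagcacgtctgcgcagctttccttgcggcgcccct

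All 5 genes lie on the minus strand of GRCm38. *Malat1* (ENSMUSG00000092341, chromosome 19, 5795690 to 5802672) and *Neat1* (ENSMUSG00000092274, chromosome 19, 5824708 to 5845478) are neighbours, each annotated as 1 exon, of 6983 and 20771 bases. *Tug1* (ENSMUSG00000056579, chromosome 11, 3639785 to 3649673) has 9734 bases of exon, *Miat* (ENSMUSG00000097767, chromosome 5, 112213228 to 112229395) has 9293 bases in 6 merged exons, and *Kcnq1ot1* (ENSMUSG00000101609, chromosome 7, 143203458 to 143296549) is a single exon of 93092 bases that runs against *Kcnq1*. Short entries on the same strand lie inside *Malat1*, *Neat1*, *Tug1* and *Miat*, and they were at 0 reads in all 8 libraries because reads that fall on overlapping genes had been left unassigned. Each of them covers between 0.530% and 3.88% of the exons of its host. Reads of genes on the opposite strand were told apart: of 186 genes wholly covered by an exon of a well-read gene on the other strand, 47.9% had reads, against 0.242% of 413 genes covered on the same strand.

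The reads that fell on a gene numbered 14315120 in the shallowest library and 27884704 in the deepest. Replicates carry no label of separate cultures, so P values measure the spread between these libraries, which may be technical. GC content weighed on the libraries unequally. Taking each gene against its mean over all libraries, genes over 55% GC differed from genes under 45% GC by a median of -0.61 on the log2 scale in Control replicate 1 and of 0.46 in Zzz3_auxin replicate 3, with -0.08 to 0.16 for the other 6 libraries. Summed over 8 markers of pluripotent cells, levels were 4745 to 4940 CPM (reads scaled to a common library size) in Control, 4353 to 4789 in Zzz3_auxin and 4233 to 4977 in Yeats2_auxin. The 4 neuroectoderm markers summed to 68.8 to 85.3, 92.5 to 118 and 84.1 to 102.7 CPM, the 4 mesoderm markers to 22.2 to 25.02, 18.1 to 30.7 and 18.6 to 21.5 CPM, the 4 endoderm markers to 1.13 to 1.59, 0.998 to 1.94 and 0.950 to 1.30 CPM, and the 5 fibroblast markers to 7.06 to 9.84, 7.40 to 12.4 and 7.42 to 9.97 CPM. A sum follows its most highly expressed members, and members did not all go the same way. Mean CPM in Control, Zzz3_auxin and Yeats2_auxin was 348, 535 and 509 for *Pou5f1* and 754, 647 and 623 for *Nanog*. It was 2345, 1933 and 2127 for *Tfcp2l1*, the largest part of the pluripotency sum. Of the neuroectoderm markers, *Nes* had 36.1, 53.1 and 45.3 and *Sox1* 5.13, 3.00 and 2.57. No marker was at 0 in all libraries, and the part of these differences in the results below was not tested. The mRNA of *Zzz3* had 186 and 182 CPM in Control, 77.5, 96.9 and 112 in Zzz3_auxin and 189, 183 and 191 in Yeats2_auxin, and that of *Yeats2* 90.9 and 95.8, 133, 119 and 123, and 77.3, 103 and 43.7. In edgeR, *Zzz3* mRNA was lower in Zzz3_auxin than in Control by a log2 fold change of -0.95 (SE 0.14, adjusted P 0.0187). *Yeats2* mRNA in Yeats2_auxin had -0.32 (SE 0.26, adjusted P 0.605). A degron acts on the protein, so these mRNAs do not show whether it was removed, and the reason for the lower *Zzz3* mRNA was not tested.

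*Malat1* was by far the most highly expressed of the 5 and *Miat* was not abundant at all. Levels between genes are compared as CPM per kb of exon. Control had 1159 ± 248 for *Malat1* (SD, n = 2), 36.6 ± 3.81 for *Tug1*, 11.2 ± 1.93 for *Neat1*, 6.72 ± 0.904 for *Kcnq1ot1* and 0.193 ± 0.0245 for *Miat*. This order held in Zzz3_auxin (n = 3), with 916 ± 254, 27.8 ± 1.06, 7.13 ± 1.49, 6.90 ± 3.86 and 0.0925 ± 0.0181, and in Yeats2_auxin (n = 3), with 1109 ± 83.9, 25.8 ± 2.68, 9.11 ± 0.912, 7.73 ± 1.56 and 0.175 ± 0.00722. The ranges of mean ± SD of *Neat1* and *Kcnq1ot1* overlapped in both auxin groups, and *Kcnq1ot1* was above *Neat1* in Zzz3_auxin replicate 1 alone, at 11.4 against 7.58 CPM per kb. The value of *Neat1* is spread over the long form, so a surplus of the short form would be diluted in it.

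Over the 8 libraries, *Malat1* ranked 2 of the 17532 genes by mean CPM, *Kcnq1ot1* 156, *Tug1* 643, *Neat1* 1244 and *Miat* 13136. *Malat1* took between 0.454% and 0.910% of all assigned reads. Among 1493 lncRNAs tested they ranked 1, 4, 8, 12 and 623 by CPM, and by CPM per kb *Malat1* ranked 1, *Tug1* 34, *Neat1* 97, *Kcnq1ot1* 112 and *Miat* 1378. *Miat* had 10 to 47 reads per library, which goes against a description of it as abundant in these cells.

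**Figure D1:**
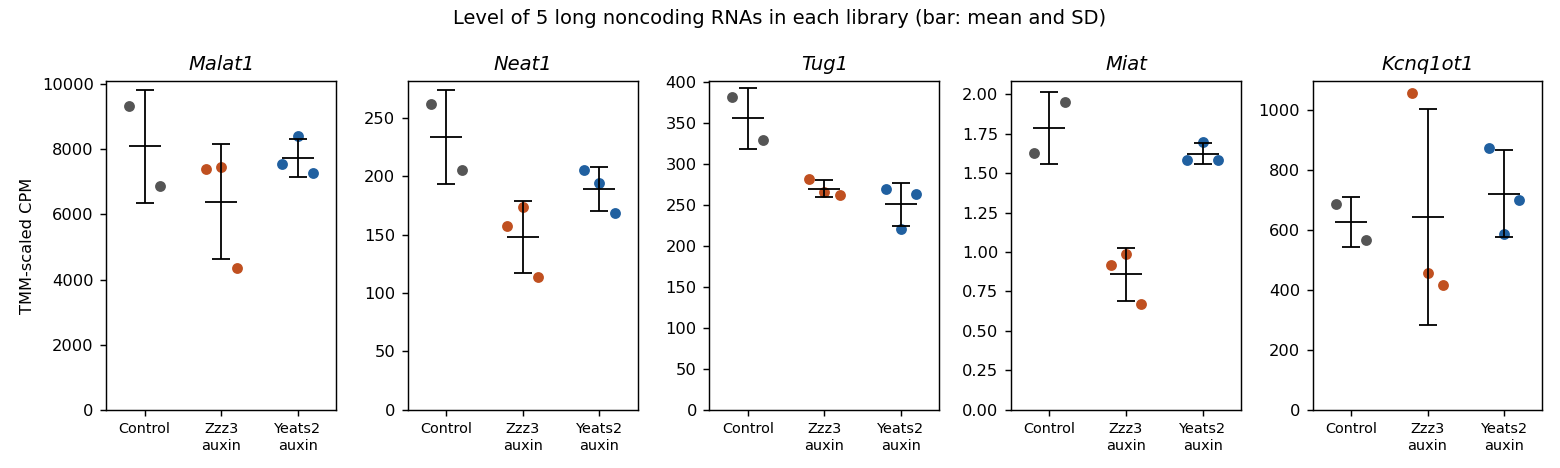
Each point is the level of an RNA in 1 library, in TMM-scaled CPM on an axis from 0, with horizontal and vertical bars for the mean and SD of each group (2 Control, 3 Zzz3_auxin, 3 Yeats2_auxin libraries). *Neat1*, *Tug1* and *Miat* were lower in every Zzz3_auxin library than in both Controls, *Tug1* also in every Yeats2_auxin library, and *Kcnq1ot1* spread from 416 to 1057 CPM within Zzz3_auxin.

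The first question was whether these RNAs changed in abundance when ZZZ3 or YEATS2 was removed. At an adjusted P under 0.05 in edgeR, 0 of the 5 were called in Zzz3_auxin against Control, where 0.753% of all genes tested were called, and 0 in Yeats2_auxin against Control, where 0.445% were. Between Yeats2_auxin and Zzz3_auxin 0 were called, as for all genes (0%). At an unadjusted P under 0.05 there were 3 in Zzz3_auxin (*Neat1*, *Tug1* and *Miat*, against 21.7% of all genes), 1 in Yeats2_auxin (*Tug1*, against 14.6%) and 2 between both depletions (*Neat1* and *Miat*, against 6.25%). DESeq2 called *Neat1* in Zzz3_auxin, where it called 5.74% of all genes, *Tug1* in Yeats2_auxin (2.18% of all genes) and none of the 5 between both depletions (0.0171%). limma-voom called *Tug1* in Yeats2_auxin (2.21% of all genes) and none of the 5 in Zzz3_auxin (0.508%) or between both depletions (0.0057%). These shares are also the background of the gene lists described further on. Libraries did not overlap, with all of them lower than Control, for *Neat1*, *Tug1* and *Miat* in Zzz3_auxin, as for 18.9% of all genes, and for *Tug1* in Yeats2_auxin, as for 21% of all genes. These shares are also the background for other genes described below as lower than both Controls. The share of genes lower in both auxin groups at once, or higher than Control, was not counted. In bulk RNA, fewer cells with an RNA and less of it per cell cannot be told apart.

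**Figure D2:**
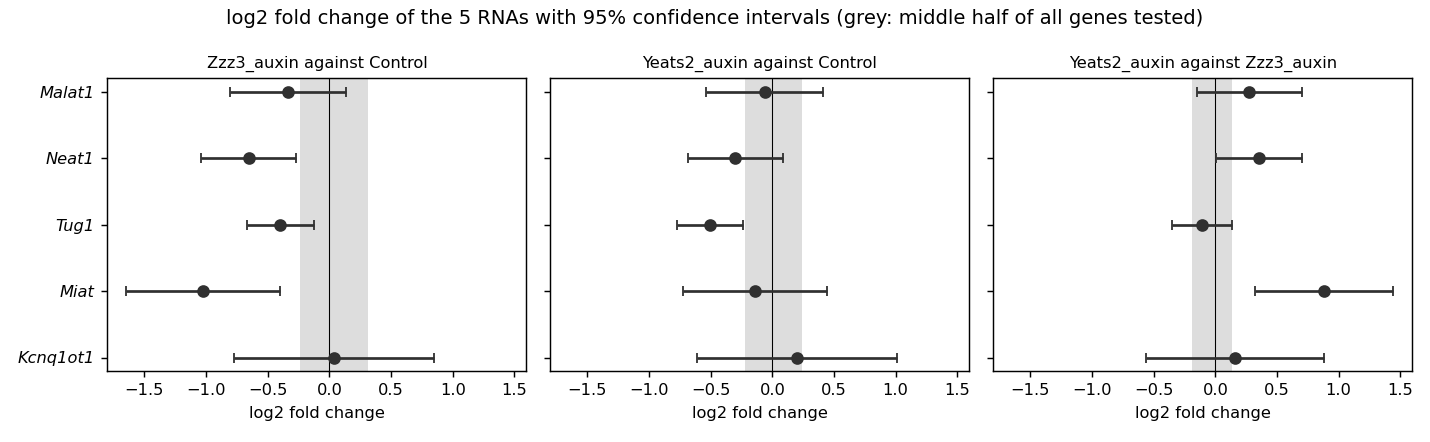
Points are log2 fold changes (FCs) of the 5 RNAs from edgeR in the 3 comparisons and bars are 95% confidence intervals. The grey band is the interquartile range of all 17532 genes tested. In Zzz3_auxin the intervals of *Neat1*, *Tug1* and *Miat* lie below 0, and the interval of *Kcnq1ot1* runs from -0.77 to 0.85.

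*Neat1*, the paraspeckle scaffold, had its lowest mean in Zzz3_auxin without passing the threshold. It had 262 and 204.9 CPM in Control, 157, 173 and 114 in Zzz3_auxin, and 206, 194 and 168 in Yeats2_auxin. All 3 Zzz3_auxin libraries lay below both Controls, and 2 of the 3 Yeats2_auxin libraries lay below both and the third just above Control replicate 2. The log2 FC in Zzz3_auxin was -0.65 (SE 0.18, 95% interval -1.04 to -0.27, edgeR adjusted P 0.0851), a fold of 0.635. In Yeats2_auxin it was -0.30 (SE 0.18, interval -0.69 to 0.08, adjusted P 0.447). The direct comparison of both depletions gave 0.35 (SE 0.16, interval 0.00 to 0.70, adjusted P 0.779), so *Neat1* is not shown to differ between them.

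The Zzz3_auxin value of *Neat1* moved across the threshold with the method. The adjusted P was 0.0282 with DESeq2, 0.000526 with edgeR without a filter on low counts and 0.0428 without Zzz3_auxin replicate 2, within a range of 0.000526 to 0.592 over 18 alternatives. DESeq2 called 5.74% of all genes in Zzz3_auxin against 0.753% in the main fit, and the fit without a filter also called many more genes. The log2 FC of *Neat1* was negative in all 18 alternatives, between -0.82 and -0.30. The value nearest 0 came from leaving out Control replicate 1 and Zzz3_auxin replicate 3, which held the highest and the lowest *Neat1* level and the strongest GC trends. With a correction for GC content and exon length it was -0.69 (adjusted P 0.0756). The part of the GC trend was not tested otherwise.

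*Neat1* was set beside *Malat1* as well, in a ratio that needs no scaling between libraries. There were 2.81 and 2.98 reads of *Neat1* per 100 reads of *Malat1* in Control, 2.13, 2.32 and 2.61 in Zzz3_auxin, and 2.72, 2.31 and 2.31 in Yeats2_auxin. Both Controls lay above all 6 auxin libraries. Such a ratio shows unequal change and not which RNA changed, and it was set up after the values were seen and not tested.

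*Tug1*, a lncRNA tied to Polycomb proteins and to male fertility in mice, had lower values in all 6 auxin libraries, and neither comparison passed the threshold. It had 382 and 329.5 CPM in Control, 282, 266 and 262 in Zzz3_auxin and 269, 221 and 263 in Yeats2_auxin. Both Controls lay above all 6 auxin libraries, and the replicates were close to each other. Of all genes, 18.9% were lower than Control in this way in Zzz3_auxin and 21% in Yeats2_auxin, and the share for both at once was not counted. The log2 FC was -0.40 in Zzz3_auxin (SE 0.12, interval -0.67 to -0.13, edgeR adjusted P 0.111) and -0.50 in Yeats2_auxin (SE 0.12, interval -0.77 to -0.23, adjusted P 0.113), folds of 0.760 and 0.706. These comparisons share the 2 Controls. The depletions differed from each other by -0.11 (SE 0.11, interval -0.35 to 0.14, adjusted P 0.850).

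In Yeats2_auxin the adjusted P of *Tug1* was 0.0299 with DESeq2, 0.0419 with limma-voom, 0.0401 without a filter and 0.0421 with only Yeats2_auxin and Control in the fit, and ranged up to 0.739 over 18 alternatives. DESeq2, limma-voom, the fit without a filter and the fit of only these groups each called more of all genes than the main fit. The log2 FC of *Tug1* stayed between -0.60 and -0.30 in Yeats2_auxin and between -0.50 and -0.19 in Zzz3_auxin. The values nearest 0 came from the correction for GC content and exon length, with adjusted P of 0.169 and 0.319. *Tug1* has the lowest GC content of the 5, 37.9%, and its level in Control replicate 1 was the highest of all libraries. The 5′ end of *Tug1* overlaps 483 bases of *Morc2a* on the opposite strand, whose log2 FCs were -0.27 (adjusted P 0.365) and -0.09 (adjusted P 0.591).

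*Miat* had the largest fold difference of the 5 and the fewest reads. It had 33 and 43 reads in Control, 24, 27 and 10 in Zzz3_auxin, and 41, 47 and 40 in Yeats2_auxin. In CPM these were 1.63 and 1.95, then 0.921, 0.989 and 0.669, then 1.59, 1.70 and 1.58. All 3 Zzz3_auxin libraries lay below the other 5. Counting error was wide, with an exact 95% Poisson interval of 0.321 to 1.23 CPM in Zzz3_auxin replicate 3 and of 1.12 to 2.29 in Control replicate 1, and these intervals cover counting error only.

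The log2 FC of *Miat* in Zzz3_auxin was -1.02 (SE 0.28, interval -1.65 to -0.40, edgeR adjusted P 0.0893), a fold of 0.492. In Yeats2_auxin it was -0.14 (SE 0.27, interval -0.73 to 0.45, adjusted P 0.837). Yeats2_auxin exceeded Zzz3_auxin by 0.88 (SE 0.26, interval 0.32 to 1.44, adjusted P 0.779), and their libraries did not overlap, as for 5.25% of all genes in this direction. None of the 3 comparisons passed the threshold under any of 18 alternatives, with adjusted P from 0.0676 in Zzz3_auxin, where the log2 FC lay between -1.25 and -0.89. *Miat* has the highest GC content of the 5, 55.1%. The trend fitted over all genes at its GC content and length was -0.26 in Control replicate 1 and 0.19 in Zzz3_auxin replicate 3, the library that held its lowest level.

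*Malat1* did not differ beyond its spread. It had 9320 and 6866 CPM in Control, 7386, 7454 and 4350 in Zzz3_auxin and 7556, 8402 and 7277 in Yeats2_auxin. Zzz3_auxin replicate 3 stood far below the others and Control replicate 1 above them, while the remaining 6 libraries lay between 6866 and 8402. The log2 FC was -0.34 in Zzz3_auxin (SE 0.21, interval -0.81 to 0.13, edgeR adjusted P 0.385), -0.06 in Yeats2_auxin (SE 0.22, interval -0.54 to 0.41, adjusted P 0.918) and 0.28 between both depletions (SE 0.19, interval -0.15 to 0.70, adjusted P 0.784). Changes of up to a fold of 0.571 in Zzz3_auxin and of 0.690 or 1.33 in Yeats2_auxin thus lie within the intervals. Without the libraries with the strongest GC trends, Control replicate 1 and Zzz3_auxin replicate 3, the log2 FC was 0.12 in Zzz3_auxin and 0.19 in Yeats2_auxin.

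The gene *Gm37376* is annotated on the opposite strand within *Malat1*, on 453 bases near its 5′ end (5801941 to 5802393). It had 75 and 67 reads in Control, 25, 47 and 7 in Zzz3_auxin and 48, 53 and 51 in Yeats2_auxin. Both Controls lay above all 6 auxin libraries. Its log2 FC was -1.60 in Zzz3_auxin (SE 0.37, edgeR adjusted P 0.0658) and -0.80 in Yeats2_auxin (SE 0.35, adjusted P 0.322). Per 100 reads of *Malat1* it ranged from 0.0108 in Zzz3_auxin replicate 3, which rests on 7 reads, to 0.0443 in Control replicate 2. Whether its reads came from a separate transcript or from *Malat1* was not tested. *Gm37376* was described after its values were seen.

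**Figure D3:**
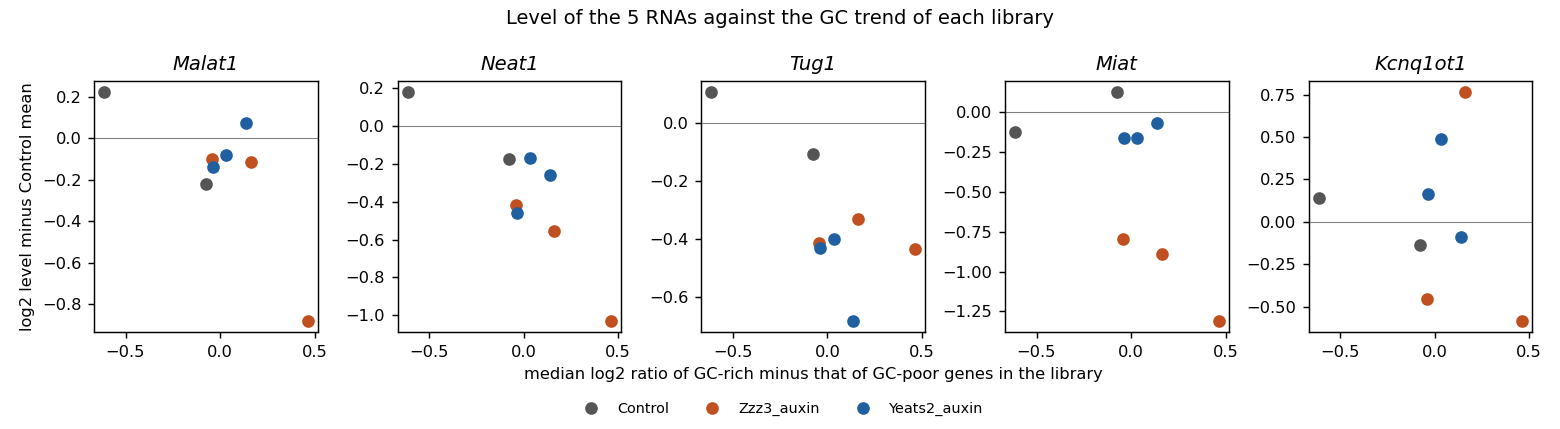
Each point is a library, with its GC trend (log2 level of genes over 55% GC minus genes under 45% GC, medians) on the x axis and the log2 level of an RNA minus its Control mean on the y axis. Control replicate 1 lies at -0.61 and Zzz3_auxin replicate 3 at 0.46, and these libraries held the highest and the lowest level of *Malat1* and *Neat1*.

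*Kcnq1ot1* varied more between replicates than nearly all genes of at least 100 CPM. It had 685 and 566 CPM in Control, 1057, 455 and 416 in Zzz3_auxin and 874, 586 and 699 in Yeats2_auxin. The highest and the lowest library of all 8 were both in Zzz3_auxin, so every group overlapped the others. The log2 FC was 0.04 in Zzz3_auxin (SE 0.36, interval -0.77 to 0.85, edgeR adjusted P 0.967), 0.20 in Yeats2_auxin (SE 0.36, interval -0.61 to 1.01, adjusted P 0.829) and 0.16 between both depletions (SE 0.32, interval -0.56 to 0.89, adjusted P 0.921). A fold between 0.586 and 1.80 in Zzz3_auxin lies within the interval. The sign in Zzz3_auxin was not stable. The log2 FC was -0.51 (edgeR adjusted P 0.204) without Zzz3_auxin replicate 1, -0.09 without Control replicate 2 and -0.059 with limma-voom, and 0.28 at the highest over the fits that left out a library.

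Spread within groups was set against that of the 2570 genes whose mean level reached 100 CPM. The pooled SD of log2 level within groups was 0.51 for *Kcnq1ot1*, the 19th highest, against a median of 0.14. It was 0.32 for *Malat1*, which ranked 161, 0.25 for *Neat1*, which ranked 368, and 0.12 for *Tug1*, which ranked 1561. *Tug1* was thus the steadiest of the 4 and lay near the middle of these 2570 genes. With 8 libraries in 3 groups these ranks are a description.

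The gene whose level followed *Kcnq1ot1* among the closest was another imprinted gene, *Mest*, which is also active on the paternal chromosome (Pearson r of log2 CPM 0.949 over 8 libraries, and 0.957 with the correction for GC content and length, the highest of 10431 genes then). *Mest* had 27.4 and 25.9 CPM in Control, 107, 14.6 and 7.70 in Zzz3_auxin and 60.4, 39.1 and 47.7 in Yeats2_auxin. Replicate 1 was the highest and replicate 3 the lowest Zzz3_auxin library for both genes. *Clmn* (r = 0.951) and *Adat1*, a tRNA adenosine deaminase (r = 0.948), were the other 2 of the closest 3.

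Maternally expressed lncRNAs of another imprinted domain, *Meg3*, *Rian* and *Mirg*, were looked at after these values were seen. *Rian* had 1034 and 949 CPM in Control, 1518, 816 and 831 in Zzz3_auxin and 1222, 1580 and 1086 in Yeats2_auxin. *Meg3* had 218 and 199.7 CPM in Control, 379, 165 and 234 in Zzz3_auxin and 303, 289 and 237 in Yeats2_auxin. *Mirg* had 140.1 and 152 CPM, then 229, 115 and 130.3, then 187, 253 and 146. Within Zzz3_auxin, replicate 1 was the highest library for *Kcnq1ot1*, *Mest* and these 3 lncRNAs, which are on different chromosomes from *Kcnq1ot1*. Not all imprinted genes went this way. *Cdkn1c*, *Phlda2* and *Slc22a18*, weakly expressed genes of the *Kcnq1ot1* domain described below, were lowest in replicate 1 within Zzz3_auxin. The share of all genes with their highest Zzz3_auxin level in replicate 1 was not counted. In Yeats2_auxin, *Rian* and *Mirg* were highest in replicate 2, where *Kcnq1ot1* and *Mest* were lowest. In edgeR, the adjusted P of *Mest*, *Meg3* and *Rian* against Control lay between 0.515 and 0.874. Pooled over alleles, such levels do not show which parental copy was read.

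**Figure D4:**
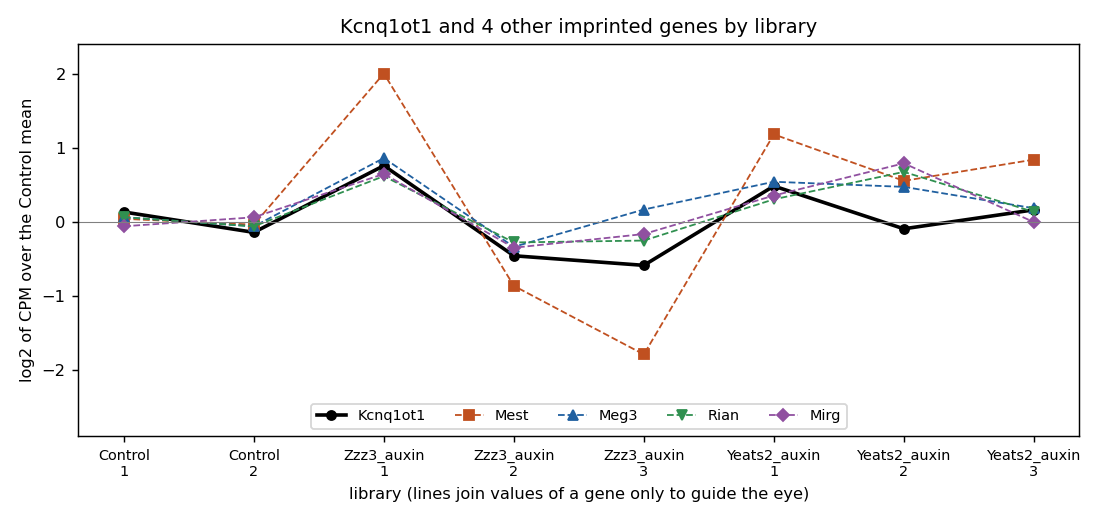
Values are log2 ratios of CPM to the Control mean for *Kcnq1ot1* and 4 other imprinted genes in each of the 8 libraries. All 5 are highest in Zzz3_auxin replicate 1 within that group, and *Mest* spans the widest range, from 7.70 to 107 CPM. *Mest* was chosen for its likeness to *Kcnq1ot1* and the others after values were seen, and other imprinted genes are not shown.

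The genes that lie in the imprinted domain of *Kcnq1ot1* were examined as its neighbours and known targets. *Kcnq1ot1* is known to silence *Cdkn1c*, *Phlda2* and *Slc22a18* on the paternal chromosome in embryo and placenta. Of 14 genes listed, 12 were tested, and edgeR called 0 in each of the 3 comparisons. At an unadjusted P under 0.05 there were 2, 5 and 3 in Zzz3_auxin against Control, Yeats2_auxin against Control and Yeats2_auxin against Zzz3_auxin (21.7%, 14.6% and 6.25% of all genes), while DESeq2 called 2, 1 and 0 and limma-voom 0, 1 and 0. The median log2 FC was 0.08 in Zzz3_auxin and -0.29 in Yeats2_auxin, where the medians of all genes were 0.01 and -0.01.

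*Phlda2*, which restrains growth of the placenta, had 0.740 and 1.91 CPM in Control, 0.499, 2.02 and 1.61 in Zzz3_auxin and 0.116, 0.470 and 0.673 in Yeats2_auxin. Its log2 FC in Yeats2_auxin was -1.65 (SE 0.68, edgeR adjusted P 0.293), with all 3 libraries below both Controls. *Slc22a18*, a membrane transporter next to it, had 0.740 and 1.27 CPM, then 0.729, 0.880 and 1.74, then 0.193, 0.253 and 0.673, and a log2 FC in Yeats2_auxin of -1.43 (SE 0.57, adjusted P 0.271). *Cdkn1c*, a cell cycle inhibitor, had 2.17 and 1.13 CPM, then 1.11, 1.21 and 1.27, then 0.696, 0.615 and 1.27, and a log2 FC of -0.94 (SE 0.39, adjusted P 0.293). These 3 genes were near 1 CPM and were chosen for naming after their values were seen. *Kcnq1* itself had at most 5 reads in any library and was not tested.

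Other genes of the domain differed in either direction, and none of them was called by edgeR. *Cars*, the cysteinyl-tRNA synthetase, had 144.6 and 166 CPM in Control, 232, 225 and 206 in Zzz3_auxin and 218, 244 and 215 in Yeats2_auxin. All 6 auxin libraries lay above both Controls, with log2 FCs of 0.51 (SE 0.12, edgeR adjusted P 0.0697) and 0.54 (SE 0.12, adjusted P 0.0854). *Cd81*, a tetraspanin, had 287 and 354 CPM, then 418, 417 and 517, then 389, 376 and 408, and log2 FCs of 0.49 (adjusted P 0.0907) and 0.29 (adjusted P 0.358). *Tspan32* had log2 FCs of -0.27 and -0.55 (adjusted P 0.445 and 0.229), and *Ascl2*, a trophoblast transcription factor, of 0.35 and 0.53 (adjusted P 0.599 and 0.500).

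Proteins that build paraspeckles on *Neat1* were next. Of 15 genes, all tested, edgeR called 0 in each comparison. In Zzz3_auxin 8 had an unadjusted P under 0.05 (21.7% of all genes did) and 12 a log2 FC below 0, with a median of -0.23 (all genes 0.01), and DESeq2 called 1 and limma-voom 0. In Yeats2_auxin 1 had an unadjusted P under 0.05 (14.6% of all genes did) and 11 a log2 FC below 0, with a median of -0.12 (all genes -0.01), and both other tools called 0. Between both depletions 2 had an unadjusted P under 0.05 (6.25% of all genes did), and both other tools called 0. *Tardbp* (TDP-43) had 779 and 573 CPM in Control, 436.5, 551 and 289 in Zzz3_auxin and 603, 665 and 553 in Yeats2_auxin, log2 FCs of -0.67 (SE 0.22, adjusted P 0.128) and -0.16 (adjusted P 0.782). *Taf15* had 143 and 89.3 CPM, then 75.2, 86.2 and 46.0, then 118, 99.2 and 91.8, log2 FCs of -0.75 (SE 0.25, adjusted P 0.138) and -0.17 (adjusted P 0.790).

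For *Tardbp* and *Taf15*, as for *Neat1* and *Malat1*, Control replicate 1 was the highest and Zzz3_auxin replicate 3 the lowest library, and the part of their GC trends was not tested for these genes. *Smarca4*, a chromatin remodelling ATPase, differed in the other direction, with 156 and 209 CPM in Control, 318, 232 and 328 in Zzz3_auxin and 253, 212 and 237 in Yeats2_auxin. Its log2 FCs were 0.68 (SE 0.17, edgeR adjusted P 0.0790) and 0.36 (adjusted P 0.362). The same libraries were its extremes in reverse, Control replicate 1 the lowest and Zzz3_auxin replicate 3 the highest. *Rbm12* had log2 FCs of -0.37 and -0.29 (adjusted P 0.1096 and 0.269) and *Cpsf6*, a 3′ end processing factor that favours the short form of *Neat1*, of -0.25 and -0.22 (adjusted P 0.225 and 0.388). Of the core proteins, named outside the rule, *Nono* had log2 FCs of -0.18 and -0.12 (adjusted P 0.396 and 0.665), *Sfpq* of -0.31 and -0.22 (adjusted P 0.186 and 0.444) and *Pspc1* of -0.13 and -0.11 (adjusted P 0.635 and 0.743).

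Proteins of nuclear speckles, where *Malat1* gathers, gave 18 genes tested and 0 called by edgeR in each comparison. An unadjusted P under 0.05 was found for 6 in Zzz3_auxin, 4 in Yeats2_auxin and 0 between both (21.7%, 14.6% and 6.25% of all genes), with medians of -0.18, -0.15 and 0.09, and DESeq2 called 2, 1 and 0 and limma-voom 0, 1 and 0. *Srsf7*, a splicing factor, had 586 and 544 CPM in Control, 369, 438 and 408 in Zzz3_auxin and 479, 460.4 and 475 in Yeats2_auxin, with all 6 auxin libraries below both Controls. Its log2 FCs were -0.48 (SE 0.11, adjusted P 0.0669) and -0.26 (SE 0.11, adjusted P 0.310). *Rnps1*, of the exon junction complex, had 39.0 and 43.0 CPM, then 20.8, 27.6 and 34.5, then 24.5, 24.2 and 21.8, and log2 FCs of -0.57 (SE 0.18, adjusted P 0.1198) and -0.80 (SE 0.18, adjusted P 0.0945). *Srsf2* had log2 FCs of -0.46 and -0.39 (adjusted P 0.104 and 0.222), and *Ddx39b*, an RNA helicase of mRNA export, of -0.09 and -0.29 (adjusted P 0.709 and 0.301).

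Factors that form the 3′ end of *Malat1* (RNase P, RNase Z) or place and read N6-methyladenosine, a mark that *Malat1* carries, gave 19 genes tested. edgeR, DESeq2 and limma-voom called 0 of them in each comparison, and 2, 1 and 0 had an unadjusted P under 0.05 (21.7%, 14.6% and 6.25% of all genes). Medians were -0.04 and 0.04 against Control. *Elac2* (RNase Z) had log2 FCs of 0.19 and 0.10 (edgeR adjusted P 0.391 and 0.747) and *Mettl16*, which binds the triple helix of *Malat1*, of -0.08 and 0.10 (adjusted P 0.785 and 0.775), both named outside the rule. The largest differences were those of *Pop7* (0.43, adjusted P 0.543) and *Rpp14* (-0.41, adjusted P 0.126) in Zzz3_auxin and of *Rpp21* (0.32, adjusted P 0.537) and *Wtap* (-0.26, adjusted P 0.286) in Yeats2_auxin.

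The nuclear RNA exosome and its adaptors, which degrade RNAs in the nucleus, gave 18 genes tested and 0 called by edgeR in each comparison. An unadjusted P under 0.05 was found for 6, 2 and 1 (21.7%, 14.6% and 6.25% of all genes), medians against Control were -0.14 and -0.07, and DESeq2 called 1, 0 and 0 and limma-voom 0, 1 and 0. *Rbm7*, the RNA-binding subunit of the nuclear exosome targeting complex, had 138 and 124 CPM in Control, 80.1, 94.5 and 98.4 in Zzz3_auxin and 96.6, 102.4 and 95.8 in Yeats2_auxin. All 6 auxin libraries lay below both Controls, and its log2 FCs were -0.52 (SE 0.12, adjusted P 0.0658) and -0.41 (SE 0.12, adjusted P 0.163). *Pabpn1*, a nuclear poly(A)-binding protein, had log2 FCs of -0.52 and -0.11 (adjusted P 0.153 and 0.820), *Srrt* of 0.46 and 0.36 (adjusted P 0.149 and 0.338) and *Zfc3h1* of -0.25 and -0.27 (adjusted P 0.390 and 0.446).

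**Figure D5:**
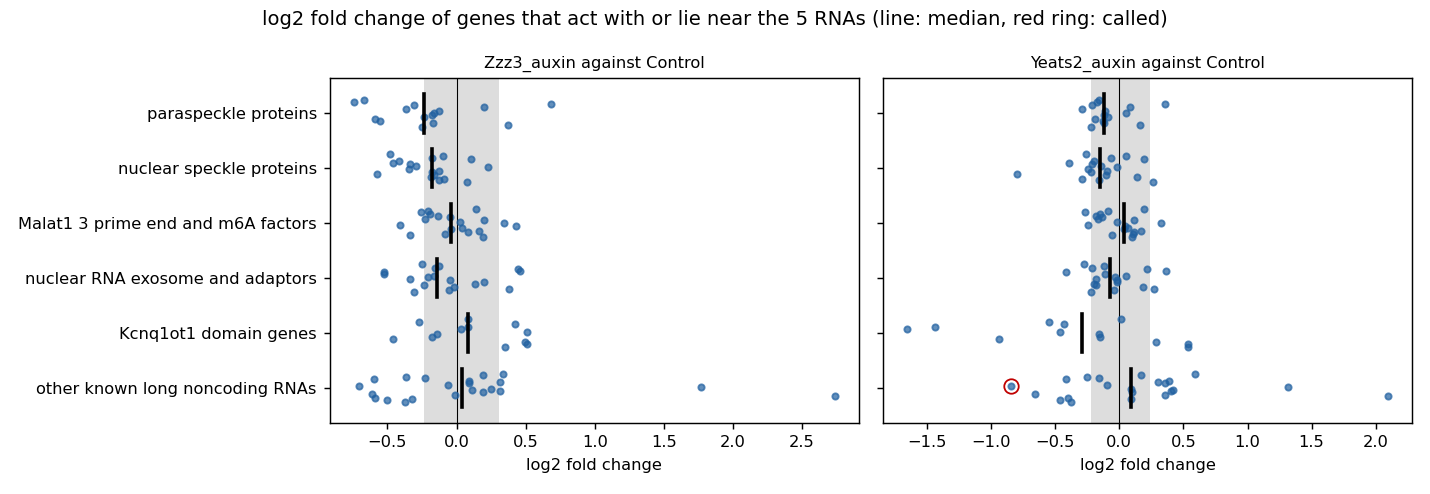
Points are log2 FCs of the genes in each of 6 lists against Control, black lines their medians, and red rings genes called by edgeR at an adjusted P under 0.05. The grey band is the interquartile range of all genes tested. The ring marks *Platr14* in Yeats2_auxin, and the points farthest right are *H19* (2.74 and 2.10) and *Peg13* (1.77 and 1.32), both near 1 CPM or below.

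Other lncRNAs were compared in the same way. Of 29 listed, 4 symbols had no match, 3 had too few reads and 22 were tested, and edgeR called *Platr14* alone, in Yeats2_auxin, which is 4.55% of the list. The calls were 0 in Zzz3_auxin and 0 between both depletions. An unadjusted P under 0.05 was found for 7, 7 and 0 (21.7%, 14.6% and 6.25% of all genes), and DESeq2 called 3, 2 and 0 and limma-voom 1, 2 and 0. *Platr14*, a lncRNA linked to pluripotency, fell in Yeats2_auxin, with 76.5 and 66.9 CPM in Control, 37.0, 44.0 and 51.4 in Zzz3_auxin and 41.0, 38.4 and 40.1 in Yeats2_auxin. Its log2 FC was -0.85 in Yeats2_auxin (SE 0.14, adjusted P 0.0382) and -0.70 in Zzz3_auxin (SE 0.15, adjusted P 0.0505). The call was lost when either Control or any of the Yeats2_auxin libraries was left out. *Lncenc1*, a lncRNA abundant in naive ESCs, had 492 and 405 CPM, then 274, 318 and 287, then 301.1, 259 and 291, and log2 FCs of -0.61 (SE 0.13, adjusted P 0.0505) and -0.66 (SE 0.13, adjusted P 0.0513). *Firre* had log2 FCs of -0.51 and -0.46 (adjusted P 0.102 and 0.194) and *Snhg1*, a host of small nucleolar RNAs, of -0.60 and -0.42 (adjusted P 0.0810 and 0.25).

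Over the class of lncRNAs tested beside the members, 1488 genes, edgeR called 3 higher and 4 lower in Zzz3_auxin (0.47%) and 6 higher and 3 lower in Yeats2_auxin (0.605%), near the shares of all genes. Their medians were -0.11 and -0.09. The log2 FCs of *Neat1* and *Miat* lay further below 0 than the lower quartile of the class in Zzz3_auxin (-0.39), and that of *Tug1* (-0.40) lay at it. In Yeats2_auxin the log2 FC of *Tug1* (-0.50) lay further below 0 than the lower quartile (-0.38).

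Genes that lie within 250 kb of a member gave 57 genes tested and 0 called by edgeR in each comparison. An unadjusted P under 0.05 was found for 10, 7 and 6 (21.7%, 14.6% and 6.25% of all genes), and DESeq2 called 3, 2 and 0 and limma-voom 0, 2 and 0. Medians were 0.15 and 0.06. Around *Malat1* and *Neat1*, which share most of their neighbours, *Sipa1* had a log2 FC of 0.72 in Zzz3_auxin (adjusted P 0.225), *Pcnx3* of 0.68 (adjusted P 0.291) and *Capn1*, a calcium-dependent protease, of 0.57 (adjusted P 0.145). Zzz3_auxin and Control libraries overlapped for each of them. For *Sipa1* and *Pcnx3*, Control replicate 1 was the lowest and Zzz3_auxin replicate 3 the highest of all libraries. *Frmd8*, 4224 bases from *Neat1*, had 0.44 (SE 0.18, adjusted P 0.194). Near *Miat*, *Tfip11*, a splicing factor, had 51.7 and 57.2 CPM in Control, 75.1, 66.6 and 49.3 in Zzz3_auxin and 84.1, 89.6 and 75.8 in Yeats2_auxin, where its log2 FC was 0.61 (SE 0.17, adjusted P 0.145).

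The genes whose log2 levels were most like those of the other 4 RNAs over the 8 libraries were found by Pearson r among 10431 genes (10432 for *Miat*) that averaged 5 CPM or more. The points share libraries and their GC trends, so r is given as a description. *Ppig*, a nuclear cyclophilin, came closest to *Malat1* (r = 0.996), with 197 and 134 CPM in Control, 144, 152 and 67.6 in Zzz3_auxin and 153, 170 and 149.6 in Yeats2_auxin, followed by *Nrep* (0.993) and *Fam98b* (0.992). After the GC and length correction r was 0.990 for *Ppig* and 0.995 for *Fam98b*. For *Neat1* the closest were *Mad2l1*, a spindle checkpoint gene (r = 0.980), *Ccdc47* (0.980) and *Guf1* (0.978), with 0.915, 0.966 and 0.667 after the correction.

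*Tug1* was most like *Brip1os*, another lncRNA, which had 49.0 and 42.8 CPM in Control, 37.1, 35.3 and 34.5 in Zzz3_auxin and 35.5, 30.8 and 33.2 in Yeats2_auxin (r = 0.988, and 0.973 after the correction, the highest in both). *Eaf1*, of RNA polymerase II elongation (r = 0.982), and *Npat*, of histone gene transcription (r = 0.981), followed. The genes most like *Miat* were *Rimklb* (r = 0.968), *Trp53rkb* (0.938) and *Purg* (0.934). All had their lowest levels in Zzz3_auxin, as *Miat* did, which follows from how they were chosen.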

How the data were processed

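Total RNA was sequenced from 8 ESC libraries after ribosomal RNA depletion (stranded kit), although the labels name poly(A) RNA. Poly(A) selection would bear on the levels of *Malat1* and the long form of *Neat1*, which lack a usual poly(A) tail, and this was not tested. The depletion described by the study is followed here. According to its methods, trimming used cutadapt and alignment to mm10 used STAR 2.5.3a, after which HTSeq 0.6.1p1 in union mode tallied, for each gene, reads with a single alignment. The values deposited by the authors are raw counts. The strand option is not given in the sources used here and was checked on overlapping genes. GENCODE annotation of GRCm38 named 55141 of 55401 identifiers, and 260 had no match. The 5 tally rows (63.5% to 69.4% of all rows' reads) were left out.

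Counts were analysed in R 4.3.3. Genes were kept by filterByExpr, libraries were scaled by TMM, and all 8 were fitted together by edgeR 4.0.16's robust quasi-likelihood test, two-sided, with Benjamini-Hochberg adjustment over all genes tested. Levels are TMM-scaled CPM. The submitters' processing notes name DESeq2 1.16.1. DESeq2 1.42.0 is an alternative here, as is limma 3.58.1. The code was tested on simulated data. Tables used Python 3.11.15 with pandas 2.3.3.

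The members and gene lists were chosen with earlier results of these data known. Named were all members, every called gene of a list, the 3 genes of each list and of the neighbours with the largest change against Control at a mean of at least 2 CPM, and the 3 genes most like each member (log2 CPM, prior count 2). Alternatives were both other tools, median-of-ratios factors, library totals, no filter, a minimum mean of 1 CPM, only the compared groups, the replicate number as a block, a lowess correction (span 0.3) for GC content and length, and leaving out each library. Leaving out both libraries with the strongest GC trends was chosen after seeing the data.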

Additional observations from a re-analysis of the deposited data

How the results depend on the processing

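GC-shifted libraries are Control replicate 1 and Zzz3_auxin replicate 3. Of all settings of the log2 FCs of the 5 RNAs, 251 kept their direction and their side of the threshold, 7 passed it and 12 turned sign. *Neat1* passed in Zzz3_auxin with DESeq2 (-0.65), without a filter (-0.64) and without Zzz3_auxin replicate 2 (-0.78), and *Tug1* passed in Yeats2_auxin with DESeq2 (-0.50), limma-voom (-0.45), no filter (-0.48) and only the 2 groups in the fit (-0.49). *Malat1* turned sign without both GC-shifted libraries (0.12 in Zzz3_auxin, 0.19 in Yeats2_auxin) and in Yeats2_auxin with the GC and length correction (0.084), the replicate block (0.10) and without Control replicate 1 (0.17). *Kcnq1ot1* turned sign in Zzz3_auxin with limma-voom (-0.059) and without Control replicate 2 (-0.09) or Zzz3_auxin replicate 1 (-0.51), and between both depletions without Zzz3_auxin replicate 2 (-0.04), Zzz3_auxin replicate 3 (-0.070), Yeats2_auxin replicate 1 (-0.0014) or both GC-shifted libraries (-0.067). No cause of these moves was tested.

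Leaving out a library at a time moved the log2 FCs in Zzz3_auxin from -0.54 to -0.11 for *Malat1*, -0.82 to -0.47 for *Neat1*, -0.50 to -0.29 for *Tug1*, -1.15 to -0.89 for *Miat* and -0.51 to 0.28 for *Kcnq1ot1*. In Yeats2_auxin they moved from -0.26 to 0.17, -0.46 to -0.12, -0.60 to -0.39, -0.26 to -0.00079 and 0.04 to 0.35, and between both depletions from 0.06 to 0.40, 0.20 to 0.48, -0.16 to -0.02, 0.76 to 0.99 and -0.07 to 0.72.

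Counts of genes called were 132 in Zzz3_auxin, 78 in Yeats2_auxin and 0 between both. In Zzz3_auxin they were 1006 with DESeq2, 1542 without a filter, 42 with the replicate block, 0 with only the 2 groups (2606 at an unadjusted P under 0.05) and 18 without both GC-shifted libraries. In Yeats2_auxin they were 383 with DESeq2, 388 with limma-voom, 553 without a filter, 32 with the block, 132 with the GC and length correction, 454 with only the 2 groups and 8 without both GC-shifted libraries. Between both depletions they were 3, 1, 117 and 1 with DESeq2, limma-voom, no filter and without both GC-shifted libraries. Leaving out a library at a time gave 0 to 841, 0 to 217 and 0 to 1. The lowest of these in Zzz3_auxin came without Control replicate 1 or 2 (0 each), Yeats2_auxin replicate 1 (3) or 3 (12) or Zzz3_auxin replicate 1 (14), and in Yeats2_auxin without Control replicate 1 or Yeats2_auxin replicate 3 (0 each). *Platr14* was not called in Yeats2_auxin with the block, without either Control, without any Yeats2_auxin library or without both GC-shifted libraries. Of 378 counts of calls in the gene lists over 18 alternatives, 58 moved. Over these alternatives the genes called in Zzz3_auxin, in Yeats2_auxin and between both numbered at most 5, 0 and 2 for paraspeckles, 3, 1 and 0 for speckles, 2, 1 and 0 for the exosome, 2, 2 and 1 for the *Kcnq1ot1* domain, 6, 3 and 0 for other lncRNAs, 4, 2 and 1 for neighbours and 0 throughout for the 3′ end and N6-methyladenosine factors, and at least 0 for each. Where 1 Control remained, it was assumed to vary like the other groups.

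Samples share a replicate number without a stated pairing, so the block is given only here. Deviations from the group means correlated at -0.34 to 0.31 for the same number and at -0.37 to 0.37 for different numbers. The deviations of the Controls are exact opposites, so each correlation with a Control has a mirror image. These ranges therefore cannot show whether libraries were paired. The block brought none of the 5 RNAs past the threshold. *Miat* had 10 to 47 reads a library.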
